A study of Danio rerio with 2 samples.

Results

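The AP-1 family genes were followed across the cells of the adult zebrafish jaw joint. They were taken as the 10 features whose symbol is *fosaa*, *fosab*, *fosb*, *fosl1a*, *fosl2*, *jun*, *junba*, *junbb*, *jund* or *atf3*, out of 36355 features in each library. All 10 symbols were found, each on a single feature. Each captured transcript carries a molecular barcode (UMI), and UMIs were summed over the cells of a population. Levels are given as CPM, the UMIs of a gene scaled to a total of 1000000 UMIs in that population. The "AP-1 sum" is the CPM of the 10 genes together.

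Jaw joints were dissected from uninjured, 3-month-old fish that carried both the *trps1:eGFP* and the *sox10:DsRed* transgene, 50 joints in a pool, and live cells were sorted by fluorescence. The *trps1:eGFP*-enriched library holds GFP-positive joint cells, and the *sox10:DsRed*-enriched library holds DsRed-positive joint cells with or without GFP. These are the gates as the labels give them. The study also describes the *trps1:eGFP* sort as positive for both colours, so what sets the libraries apart is not certain. Each sort gave 1 library, so no difference below has a replicate check, no test was made, and every interval is a 95% interval for counting error only. The libraries are called trps1 and sox10 below.

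AP-1 is a transcription factor built as a dimer of basic leucine zipper proteins. Jun proteins pair with each other, with Fos proteins or with relatives such as Atf3, and the dimer binds a short DNA element in the control regions of many genes. Fos proteins cannot pair with each other. Most of these genes are immediate early genes, whose RNA appears within minutes of a growth factor, injury or stress signal without new protein synthesis. In mouse, Fosl2 and Jun family proteins act in osteoblasts, Fos acts in osteoclast formation, and the digestion of tissue into single cells is known to induce Fos and Jun RNA by itself. The joints here were digested with proteases before the sort, so RNA present in the joint and RNA made during the digestion cannot be told apart in these values.

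The trps1 library held 4876 barcodes with 17424489 UMIs, of which 3919 barcodes passed the study's limits of 500 to 2000 genes and at most 5% mitochondrial UMIs. The sox10 library held 462 barcodes with 1073482 UMIs, of which 242 passed. The median UMIs per passing cell were 3648 in trps1 and 2587.5 in sox10. The libraries shared 16 barcodes, 2 of them within the limits in both. Clusters were built from variable features that excluded the AP-1 genes and the lists of immediate early, other bZIP and chaperone genes. Of the 17 clusters, 13 held at least 30 trps1 cells. Names with "-like" rest on at least 3 markers of a fixed list, and the other clusters are called by a leading gene. The 362 ligamentocyte-like cells met the rule with 6 of 7 markers, but *thbs4a* was found in 22.4%, *scxa* in 9.67% and *mkxa* in 7.73% of them. The wider markers *tnmd*, *ogna* and *col12a1a* were in 45.0%, 47.2% and 67.1%. Values of this cluster may thus not be those of ligamentocytes alone. Each of the *pah* and *mamdc2b* dermal fibroblast-like clusters met the rule with 4 of 6 markers. *pah* was in 91.6% of the *pah* cells and 88.1% of the *mamdc2b* cells, counted over both libraries. In the same order, *kera* was in 34.3% and 37.9% and *pck1* in 22.5% and 17.1%. The cluster led by *prg4b*, a lubricin gene of the joint surface, held 98 trps1 cells. It was higher in *prg4b* and *vcana* of 5 markers for superficial chondrocytes. Of the others, *clu* was in 77.6% of its cells but just under 2-fold higher (0.90 on the log2 scale). *has2* was in 1.02% of them and *prg4a* had no UMI, so the cluster is not given that name. Without the 5% of barcodes with the most UMIs, a *prg4b*-led cluster of 153 cells did meet the rule with 3 markers. The study names its cells with *prg4b*, *clu* and *vcana* superficial chondrocytes. The glia-like cluster held 22 trps1 and 45 sox10 cells. The myelin gene *mbpa* had a UMI in 1 of the 22 trps1 cells (4.55%) and in 26 of the 45 sox10 cells (57.8%), so only the sox10 cells are described as glia-like here.

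AP-1 RNA was abundant in the trps1 library and differed widely between its genes. The 10 genes took 254646 UMIs of the passing trps1 cells, or 15843 CPM, and 4430 UMIs of the passing sox10 cells, or 5342 CPM. The libraries differ in cell types, so values over a whole library are not of like cells. Of the 242 sox10 cells, 80 were *matn1* chondrocyte-like, 74 *ucmab* chondrocyte-like and 45 glia-like. Only 3 trps1 cells were *matn1* chondrocyte-like. *fosab* (LL0000010566), a fos gene of zebrafish, led the trps1 library with 5884 CPM and ranked 17 among the 23656 features with a UMI. In sox10 it had 758.5 CPM and ranked 198 of 14048. *junba* (LL0000013045), a junb gene, came next in trps1 with 2756 CPM and led in sox10 with 1508.5 CPM. *junbb* (LL0000013046), its duplicate, had 1929 CPM in trps1 and 439 CPM in sox10. *jun* (LL0000013044), the founding gene of the family, had 1853 CPM in trps1 and 787 CPM in sox10. *fosb* (LL0000010567) had 1587 CPM in trps1 and 696 CPM in sox10, and *fosl1a* (LL0000010568), which encodes a Fra1 protein, had 1060.4 CPM in trps1 and 500.4 CPM in sox10. *atf3* (LL0000001523), a stress-responsive partner of Jun, stood at 467 CPM in trps1 and 332 CPM in sox10. The least abundant of the detected members differed less between libraries. *jund* (LL0000013047) had 187 CPM in trps1 and 158 CPM in sox10, and *fosl2* (LL0000010570), a Fra2 gene, had 118 CPM in trps1 and 163 CPM in sox10. *fosaa* (LL0000010565), the duplicate of *fosab*, was close to absent, with 31 UMIs in trps1 and 0 in the passing sox10 cells.

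The dermal fibroblast-like cells carried the most AP-1 RNA and the osteoblast-like cells the least among the 13 trps1 populations. The AP-1 sum was 28901 CPM (28657 to 29146) in the *pah* dermal fibroblast-like cells and 24609 CPM (24373 to 24848) in the *mamdc2b* dermal fibroblast-like cells. The *glis1b* cluster had 20464 CPM and the *ccl19a.1* cluster 20127 CPM, with overlapping intervals. The *hspb1* cluster and the ligamentocyte-like cells stood side by side at 13278 CPM and 13266 CPM, as did the *ctslb* cluster, which expresses *acta2*, and the *fgl1* cluster at 10976 CPM and 10922 CPM. The *prg4b* cluster had 9963 CPM (9624 to 10311) and the epithelial-like cells 9255 CPM (9127 to 9384). The *coch* cluster had 6744 CPM. The pre-osteoblast-like cells (5806 CPM, 5497 to 6128) and the osteoblast-like cells (5682 CPM, 5542 to 5824) had overlapping intervals at the bottom, 5.09-fold under the *pah* cells.

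Single cells spread widely within each population. AP-1 UMIs made up a median of 2.25% of a cell's UMIs in the *pah* dermal fibroblast-like cells, with 5% of cells under 0.819% and 5% over 7.64%. The median was 2.33% in the *mamdc2b* dermal fibroblast-like cells, 0.965% in the ligamentocyte-like cells, 0.877% in the epithelial-like cells, 0.639% in the *prg4b* cluster and 0.450% in the osteoblast-like cells. The populations therefore overlapped cell by cell even where their sums did not. The highest cell, in the *glis1b* cluster, had 14.9% of its UMIs on these genes, and the highest osteoblast-like cell 6.86%.

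**Figure D1:**
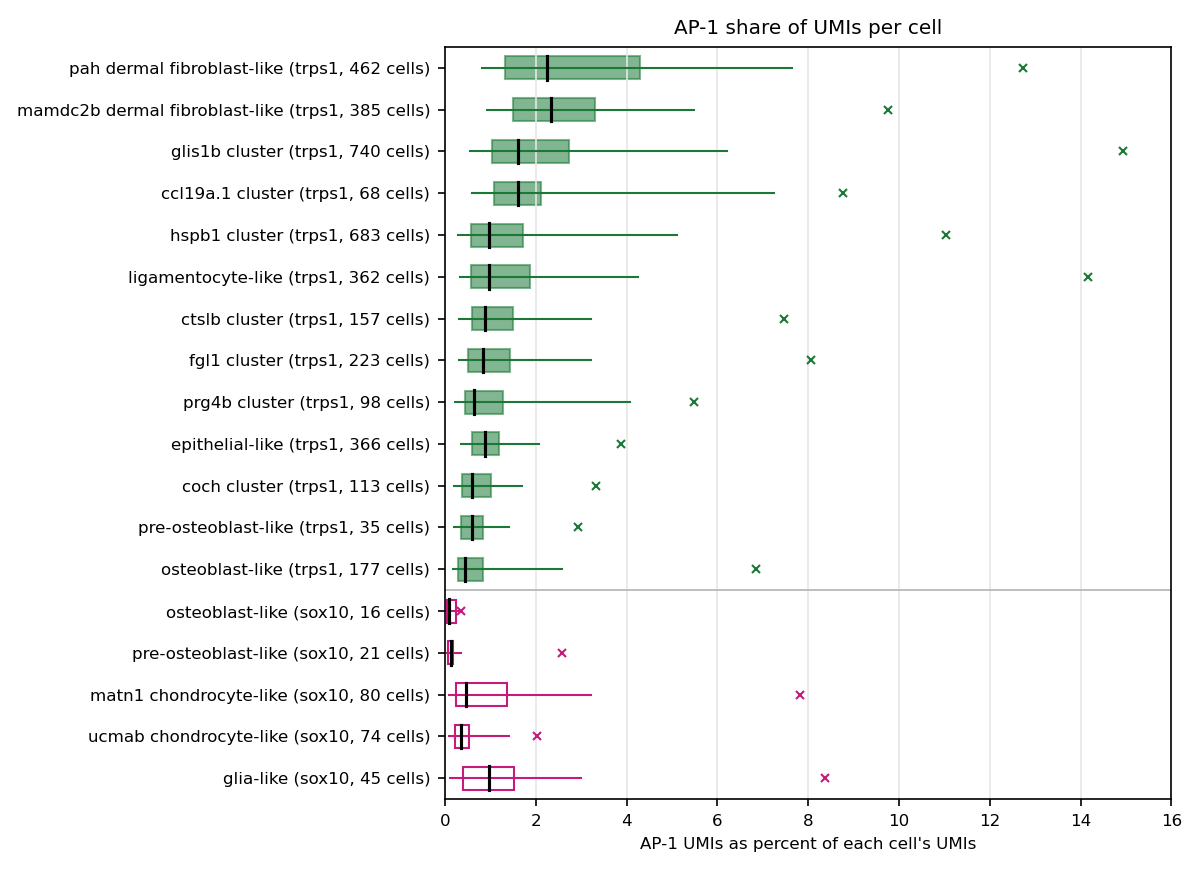
Share of each cell's UMIs on the 10 AP-1 genes (percent, x axis) in the 13 trps1 populations (filled) above 5 sox10 populations (open). Boxes span the quartiles with the median as a black line, lines run between the 5% and 95% points, and crosses mark the highest cell. The dermal fibroblast-like medians of 2.25% and 2.33% lie highest and the sox10 osteoblast-like cells lowest.

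Among the Fos genes, *fosab* separated the 13 trps1 populations most. It had 12070.5 CPM in the *pah* and 10990 CPM in the *mamdc2b* dermal fibroblast-like cells, 5660.1 CPM in ligamentocyte-like cells, 3197 CPM in the *prg4b* cluster, 2299.8 CPM in epithelial-like cells, 1364 CPM in osteoblast-like cells and 955 CPM in pre-osteoblast-like cells. That is a 12.6-fold range. *fosb* moved in a narrow band by comparison, between 1989.9 CPM in the *pah* cells and 880.4 CPM in pre-osteoblast-like cells, a 2.26-fold range. *fosl1a* did not follow the order of the sum. It was highest in the *ccl19a.1* cluster at 1447 CPM, and its intervals overlapped between neighbours from there down to the *pah* cells at 1239 CPM. Epithelial-like cells (1107 CPM), the *prg4b* cluster (1064 CPM) and ligamentocyte-like cells (1032 CPM) had overlapping *fosl1a* intervals and stood above the *mamdc2b* cells (963 CPM) in rank. Both skeletal populations had less, 513 CPM in osteoblast-like and 273 CPM in pre-osteoblast-like cells. *fosl2* lay between 161 CPM in the *glis1b* cluster and 37.6 CPM in the *ccl19a.1* cluster, and pre-osteoblast-like cells, low for *fosab*, were among its highest at 154 CPM (107 to 214). *fosaa* reached 6.50 CPM in epithelial-like cells, from 14 of its 31 UMIs.

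The Jun genes differed from each other in where they were high among the 13 trps1 populations. *junba* was highest in the *pah* cells at 5499 CPM, 1.66-fold (1.61 to 1.72) over the *mamdc2b* cells at 3314 CPM. *jun* had the opposite order, with 3160 CPM in the *pah* cells and 3409 CPM in the *mamdc2b* cells, a ratio of 0.927 (0.894 to 0.962). Both differences are under 2-fold. With 10 CPM added, 0 of 9 members were at least 2-fold higher or lower between these clusters. Of 10060 genes, 1.32% were higher in the *pah* cells and 2.83% lower. Beside this, 9 of 10 epithelial markers had UMIs in the *pah* cells and summed to 6785 CPM, and 8 of 10 summed to 3360 CPM in the *mamdc2b* cells, against 50101 CPM in the epithelial-like cells. Their part in the difference was not tested. *junbb* had the widest range of all members, 14.4-fold, from 3926 CPM in the *pah* cells to 273 CPM in osteoblast-like cells. *jun* was lowest in the *coch* cluster at 599.9 CPM and kept a middle level in the skeletal cells, with 1805 CPM in pre-osteoblast-like and 1188 CPM in osteoblast-like cells, above the epithelial-like cells at 906 CPM. *jun* accordingly made up 53.6% of the Jun-type UMIs in pre-osteoblast-like and 46.5% in osteoblast-like cells, against 27.6% over all trps1 cells. *jund*, a Jun gene that is less tied to stimulation in mammals, was between 270.4 CPM in the *pah* cells and 70.4 CPM in pre-osteoblast-like cells.

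Among the 13 trps1 populations *atf3* had its peak in the *prg4b* cluster. It stood at 1245 CPM (1127 to 1372) there, next to 644 CPM in the *pah* cells and 642 CPM in the *glis1b* cluster, and at 143 CPM in the *coch* cluster. The sox10 glia-like cells had a similar level, 1255 CPM (1021 to 1527). A UMI of *atf3* was found in 68 of 98 cells of the *prg4b* cluster (69.4%) and in 169 of 362 ligamentocyte-like cells (46.7%). No population was fixed as lacking these genes, so no background share can stand beside these values, and the lowest share among the skeletal cells was 37.1%, in 13 of 35 pre-osteoblast-like cells. With every cell thinned to 1000 UMIs the shares were 46.9% in the *prg4b* cluster and 19.6% in ligamentocyte-like cells. The *prg4b* cells had a median of 1.11% mitochondrial UMIs and the ligamentocyte-like cells 0.542%, and the part of this in the *atf3* values was not tested.

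**Figure D2:**
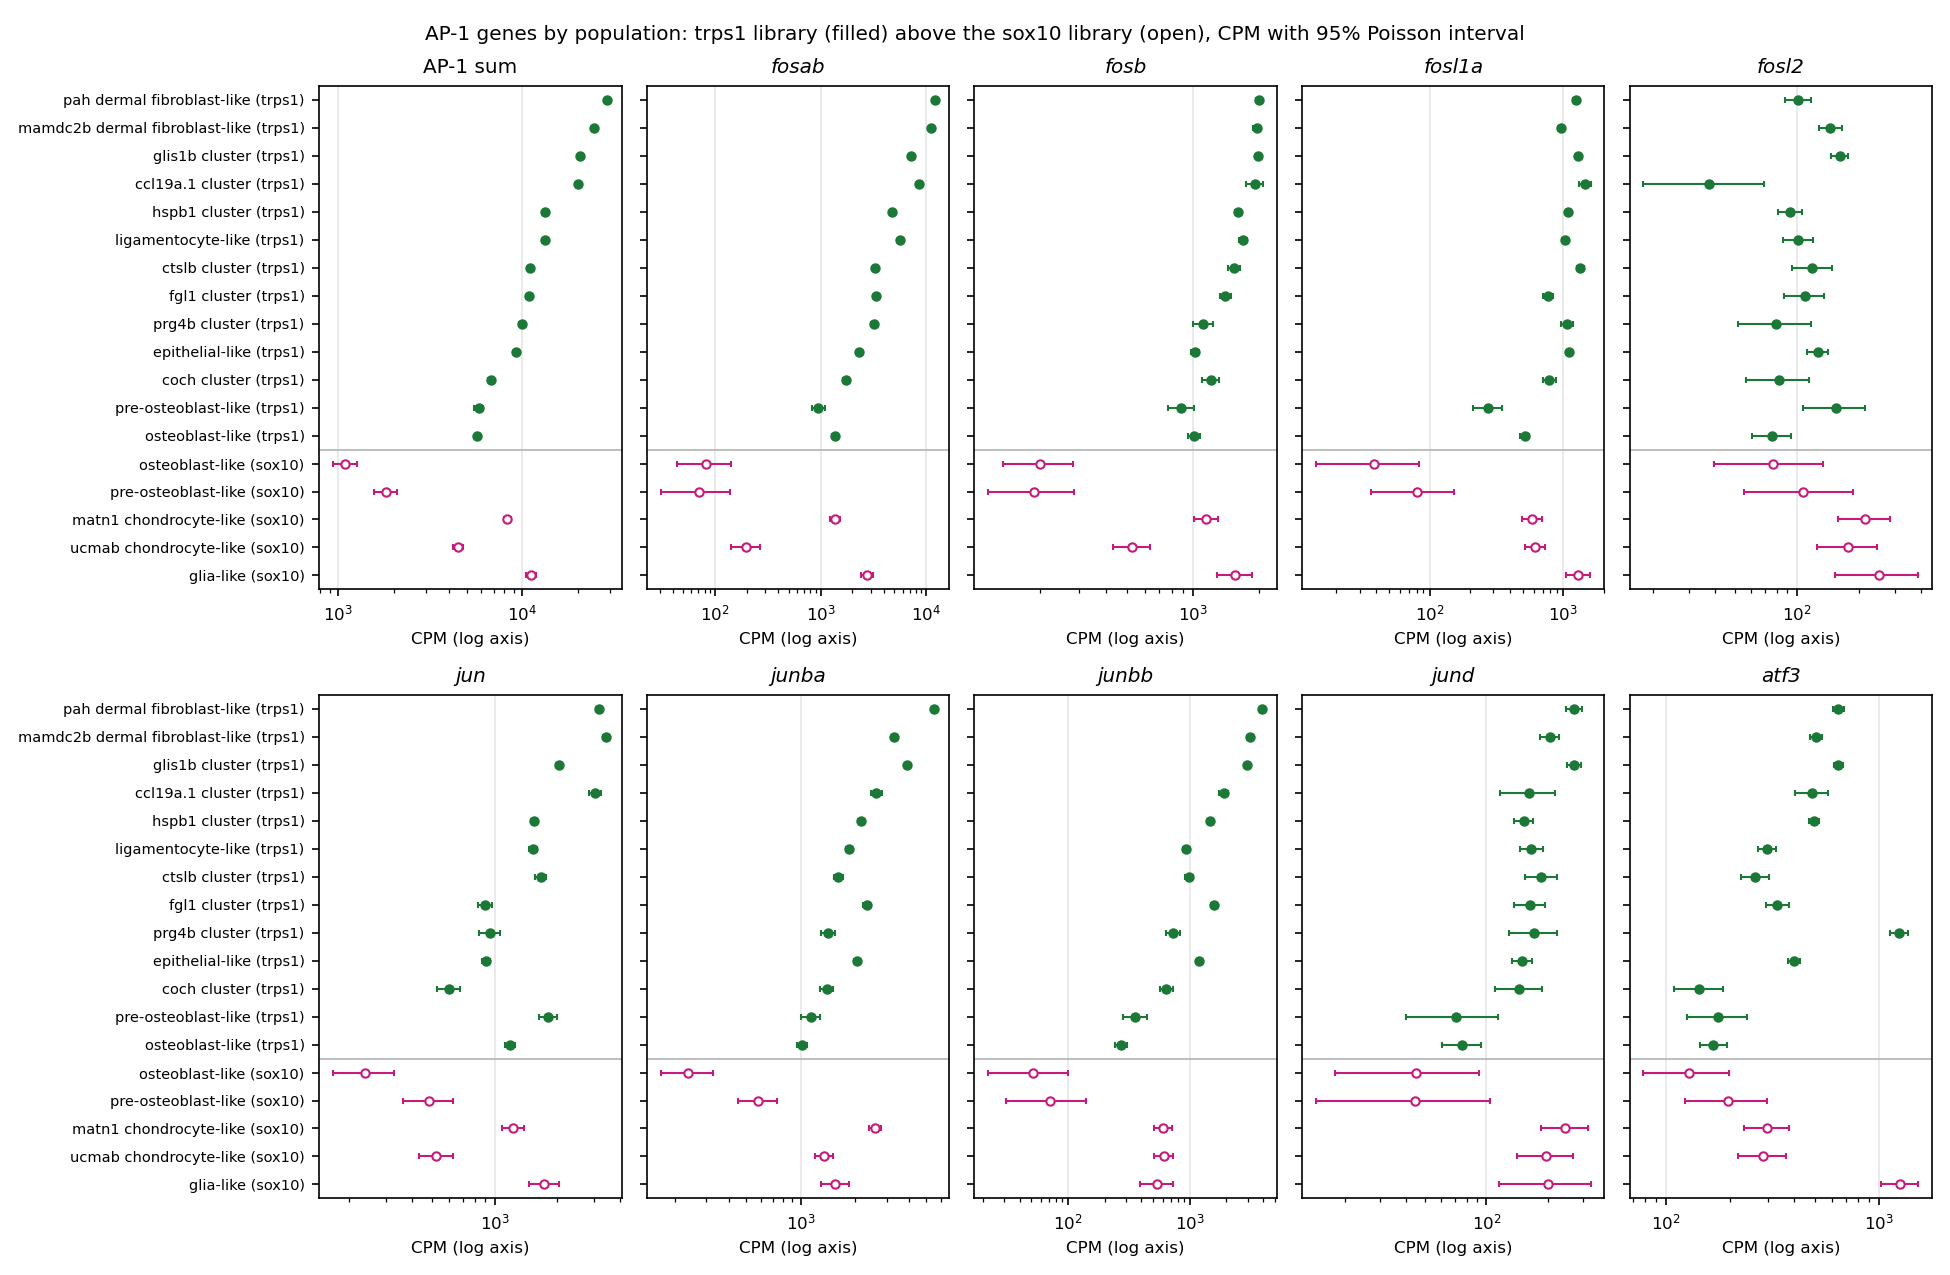
CPM of the AP-1 sum and of 9 members (x axes, log scale, each panel with its own range) by population, with 95% Poisson intervals. The 13 trps1 populations (filled) are ordered by the AP-1 sum above 5 sox10 populations (open); *fosaa*, at most 6.50 CPM, is not drawn. *fosab* and *junbb* broadly follow the order of the sum, *fosl2* does not, and *atf3* is highest among the trps1 populations in the *prg4b* cluster at 1245 CPM, next to 1255 CPM in the sox10 glia-like cells.

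Each trps1 population was then set against all other trps1 cells, with a member counted as higher or lower at a 2-fold difference after 10 CPM had been added to both sides. All 10 members passed the limit of 10 UMIs over both sides together. In the *pah* dermal fibroblast-like cells 3 members were higher, *fosab*, *junba* and *junbb*, where 1.23% of 15080 genes were. *fosab* had 12070.5 CPM against 5075 CPM in the other cells, a ratio of 2.38 (2.34 to 2.42). In the *mamdc2b* cells 2 were higher, *fosab* and *jun*, where 2.29% of genes were, with ratios of 2.08 (2.05 to 2.11) and 2.04 (1.98 to 2.10). In the *glis1b* cluster 0 members reached 2-fold, where 0.464% of genes did, although the median member was higher by 0.45 on the log2 scale and the median gene by -0.02. Most tested genes have few UMIs and seldom reach 2-fold with 10 CPM added. Among the 922 genes of at least 100 CPM, which 9 of the members were, 6.62% were higher in the *pah* cells and 9.54% in the *mamdc2b* cells.

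The osteoblast-like cells were low in most members. Of the 10, 6 were at least 2-fold lower than in the other trps1 cells, where 7.8% of all genes and 37.9% of genes of at least 100 CPM were. These were *junbb* (ratio 0.133, 0.118 to 0.149), *fosab* (0.219, 0.208 to 0.231), *atf3*, *junba*, *jund* and *fosl1a*. *fosb* and *jun* were lower by less, with ratios of 0.618 and 0.624. The median member was at -1.17 on the log2 scale and the median gene at -0.18. Most tested genes have few UMIs, and the 10 CPM added shrinks their differences, so these medians are not of genes of like abundance. The 9 listed osteoblast markers, *bglap* among them, took 54409 CPM of these cells, and the part of this in the low values was not tested. The pre-osteoblast-like cells, 35 in all, also had 6 members lower, where 8.38% of all genes and 32.9% of genes of at least 100 CPM were.

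Epithelial-like cells had 2 members lower than the other trps1 cells, *fosab* (ratio 0.357, 0.347 to 0.368) and *jun* (0.453, 0.433 to 0.474), where 8.37% of all genes and 32.9% of genes of at least 100 CPM were. *fosl1a* (1.05, 1.0 to 1.1) and *fosl2* (1.09, 0.951 to 1.24) were near 1 there. In the ligamentocyte-like cells 1 member was lower, *junbb* with a ratio of 0.462 (0.437 to 0.488), where 2.32% of all genes and 13.3% of genes of at least 100 CPM were, while *fosab* (0.958, 0.937 to 0.980) and *fosb* (1.07, 1.02 to 1.11) were close to the other cells. The *coch* cluster had 4 members lower, *fosab*, *jun*, *junbb* and *atf3*, where 4.65% of all genes and 21.3% of genes of at least 100 CPM were, and their ratios lay between 0.291 and 0.328. In the *prg4b* cluster *atf3* was the single member at least 2-fold higher, where 6.45% of all genes and 10.4% of genes of at least 100 CPM were, with 1245 CPM against 451 CPM in the other cells and a ratio of 2.76 (2.49 to 3.05). *junbb* was the single member lower, with a ratio of 0.376 (0.330 to 0.427), where 4.83% of all genes and 21.4% of genes of at least 100 CPM were. In the epithelial-like, ligamentocyte-like and *prg4b* cells the counts of members were thus close to or under the share among genes of at least 100 CPM. That set is not matched to the members in abundance, as *fosab* ranked 17 among all trps1 features. *fosl1a* in the *prg4b* cluster was level with the other cells, at 1.0 (0.90 to 1.12). Set against the ligamentocyte-like cells alone, *atf3* was 4.18-fold higher (3.64 to 4.8) in the *prg4b* cluster and *fosab* was at 0.565 (0.529 to 0.602).

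Most members varied together across populations, as a description over 13 populations of 1 library that share free RNA and handling. On the log2 scale with 10 CPM added, Pearson's r of a member with the summed other 9 was 0.95 for *fosab*, 0.93 for *junbb*, 0.91 for both *fosb* and *junba*, and 0.84 for *jund*. It was 0.67 for both *jun* and *fosl1a*, 0.62 for *atf3*, 0.00 for *fosl2* and -0.26 for *fosaa*, which had few UMIs. The pair *junba* and *junbb* had an r of 0.97 with each other. Of 6722 other genes of at least 100 UMIs, the 5 whose pattern was most like the AP-1 sum were *gadd45ba* (r = 0.98), a stress-induced gene of the Gadd45 family with 2234 CPM in the *pah* cells and 678 CPM in pre-osteoblast-like cells, *rabl2* (0.95), *mob1ba* (0.95), *zgc:162730* (0.94) and *uqcc1* (0.94). Levels were low for *rabl2* (0 to 19.6 CPM), *mob1ba* (4.40 to 36.0 CPM) and *uqcc1* (4.40 to 34.9 CPM), near the 10 CPM added, so their r is less certain.

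The balance of Fos to Jun RNA also differed between populations. Over all passing cells there were 1.29 UMIs of Fos genes for each UMI of Jun genes in trps1 and 0.732 in sox10. The libraries differ in cell types, so these ratios are not of like cells. Within trps1 the ratio was highest in the ligamentocyte-like cells (1.89) and the *prg4b* cluster (1.67), near 1.06 in epithelial-like cells, and lowest in the pre-osteoblast-like cells (0.672). *fosab* alone made up 44.7% of the AP-1 UMIs in the *mamdc2b* cells, 42.7% in ligamentocyte-like cells, 24.0% in osteoblast-like cells and 16.5% in pre-osteoblast-like cells.

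UMIs of several members were found in nearly every trps1 barcode. A UMI in a barcode does not show that the cell made the RNA, and no population was fixed as lacking these genes to give a background share. The median cell had UMIs of 7 of the 10 genes in trps1 and of 5 in sox10, and 3698 of 3919 trps1 cells (94.4%, 93.6 to 95.1) had at least 5, against 139 of 242 sox10 cells (57.4%, 50.9 to 63.7). After thinning every cell to 1000 UMIs, which left 3914 trps1 and 239 sox10 cells, these shares were 59.3% in trps1 and 25.5% in sox10. The cell types of the libraries differ, so these shares are not of like cells. The thinned share was 81.3% in the *mamdc2b* and 80.9% in the *pah* dermal fibroblast-like cells, 75.5% in the *glis1b* cluster, 52.2% in ligamentocyte-like cells, 48.1% in epithelial-like cells, 32.3% in the *prg4b* cluster and 23.7% in osteoblast-like cells. *fosab* and *junba*, a gene for each side of a dimer, were found together in 94.7% of trps1 cells and 41.7% of sox10 cells, and in 69.2% of trps1 and 23.0% of sox10 cells after thinning.

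The chondrocyte-like cells lay almost wholly in the sox10 library, where 2 chondrocyte-like clusters differed in part of the family. The *matn1* chondrocyte-like cells (80 sox10 cells) had an AP-1 sum of 8289.7 CPM (7921 to 8671) and the *ucmab* chondrocyte-like cells (74 sox10 cells) had 4478 CPM (4199 to 4771). The clusters share the genes that name them. Over both libraries, *matn1* was in 80.7% of the *matn1* and 94.6% of the *ucmab* cells, and *ucmab* in 30.1% and 77.0%. *fosab* differed most as a ratio, with 1382 CPM in *matn1* cells and 197 CPM in *ucmab* cells, 7.03-fold (5.08 to 9.95). *junba* had the largest difference in CPM, with 2588 CPM in *matn1* cells and 1348 CPM in *ucmab* cells, 1.92-fold (1.67 to 2.22). *jun* (2.34, 1.88 to 2.95) and *fosb* (2.18, 1.74 to 2.74) also passed 2-fold, which made 3 of the 9 members with 10 UMIs, where 12.3% of 3211 genes were. *fosl1a* (0.956, 0.746 to 1.22), *junbb* (0.991, 0.775 to 1.27) and *atf3* (1.04, 0.726 to 1.5) had intervals that span 1. Divided by depth into 3 groups of nearly equal size, the *matn1* cells with the fewest UMIs had a sum of 14066 CPM, the middle group 6971 CPM and the group with the most UMIs 7034 CPM. Osteoblast markers summed to 5767 CPM in the *matn1* cells and 93.6 CPM in the *ucmab* cells, and their part in the difference was not tested. With 20 dimensions the chondrocyte-like cells of both libraries fell into clusters of 72, 46 and 40 cells. The comparison was not recomputed under other settings. Among sox10 populations of at least 10 cells the 45 glia-like cells had the highest sum, 11146 CPM (10425 to 11904), with *fosab* at 2774 CPM and *atf3* at 1255 CPM. They also had the fewest UMIs per cell of the 5 sox10 populations (median 1410) and the highest median mitochondrial share, 1.18%. Immune markers summed to 1218 CPM in them, from 5 of 8 genes with *lcp1*, *spi1b* and *marco* at 0, and to at most 44.5 CPM in the other 4. The part of these in the high sum was not tested.

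The 2 skeletal populations held enough cells of both libraries to compare, and in both the AP-1 sum was higher in trps1. In osteoblast-like cells it was 5682 CPM in trps1 (177 cells) and 1095 CPM in sox10 (16 cells), a ratio of 5.19 (4.46 to 6.07). *fosab* had 1364 CPM in trps1 and 83.3 CPM in sox10, from 1513 and 13 UMIs, a ratio of 16.4 (9.55 to 30.8). *fosl1a* had 513 CPM in trps1 and 38.4 CPM in sox10, a ratio of 13.3 (6.09 to 36.5). *junbb* (5.33), *fosb* (5.07), *jun* (5.01) and *junba* (4.29) were also over 2-fold, which made 6 of the 9 members with 10 UMIs, where 18.7% of 4392 genes were. *jund* (1.69, 0.785 to 4.33), *atf3* (1.30, 0.819 to 2.18) and *fosl2* (0.985, 0.535 to 1.98) had intervals that span 1. In osteoblast-like cells, then, members of 1 family differed between libraries by anything from 16.4-fold to no more than counting error.

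In pre-osteoblast-like cells the sum was 5806 CPM in trps1 (35 cells) and 1815 CPM in sox10 (21 cells), a ratio of 3.20 (2.76 to 3.73). *fosab* again led with 955 CPM in trps1 and 71.2 CPM in sox10, a ratio of 13.4 (6.69 to 31.5). Of the 9 members 5 were at least 2-fold higher in trps1, where 17.8% of 2208 genes were. *junba* came close at 1.96 (1.49 to 2.62), and *atf3* was at 0.90 (0.522 to 1.59). Without the 5% of barcodes with the most UMIs the log2 difference of the sum fell to 0.85, against 1.68 with them, and in cells of 3000 to 8000 UMIs, a window chosen after seeing the data, it was 2.46. Leaving out the barcodes with the most UMIs also meant clustering the cells again. The cluster led by *spp1* and *mmp13b* then held 63 cells of both libraries, against 56 before. Another cluster of 139 cells, with *ctslb* and *acta2*, also met the naming rule with 3 pre-osteoblast markers. The value in pre-osteoblast-like cells thus depends on which of its few cells are counted and on the clustering.

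The cluster of the glia-like cells also held cells of both libraries, and there the sum did not differ beyond counting error. It was 10226 CPM in the 22 trps1 cells and 11146 CPM in the 45 sox10 cells, a ratio of 0.917 (0.833 to 1.01). Of 9 members 0 were at least 2-fold higher in trps1 and 1 was lower, where 23.2% of 1562 genes were higher and 26.4% lower. This was *atf3*, with 541 CPM in trps1 and 1255 CPM in sox10, a ratio of 0.431 (0.293 to 0.624). Chaperone genes summed to 63006 CPM in trps1 and 20322 CPM in sox10. As most of these trps1 cells had no UMI of *mbpa*, the comparison may not be of 1 cell type.

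**Figure D3:**
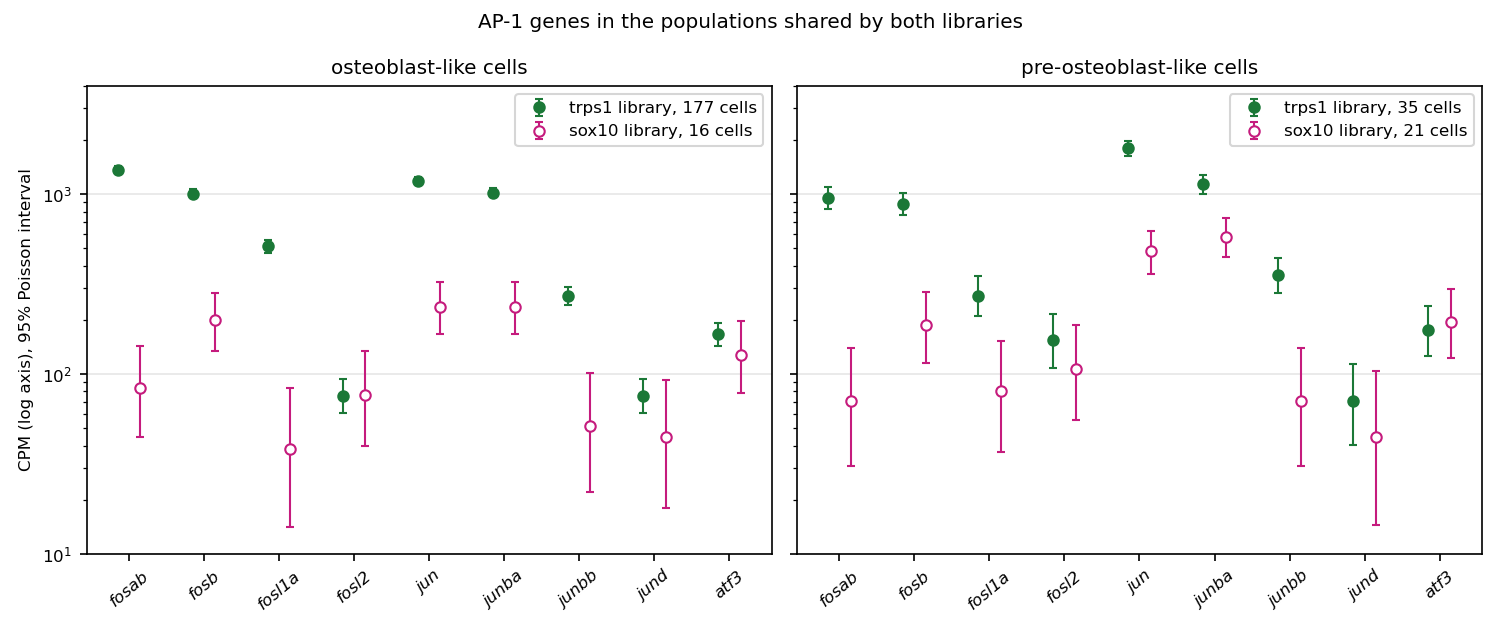
CPM (log y axis) with 95% Poisson intervals of 9 AP-1 members in osteoblast-like cells (left panel) and pre-osteoblast-like cells (right panel) of the trps1 library (filled) and the sox10 library (open). *fosab* is 16.4-fold and 13.4-fold higher in trps1, while the intervals of *fosl2*, *jund* and *atf3* overlap.

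Other measures moved with the difference between the libraries in the skeletal cells. Heat-shock and other chaperone genes summed to 25039 CPM in trps1 and 7084 CPM in sox10 osteoblast-like cells, with 11 of 16 at least 2-fold higher and none lower, where 18.7% of all genes were higher and 5.35% lower. Of 39 other immediate early genes 25 were at least 2-fold higher in trps1 and 1, *nr4a2b*, lower, and they summed to 9519.6 CPM in trps1 and 3811 CPM in sox10. The median osteoblast-like cell had 5184 UMIs in trps1 and 9369.5 UMIs in sox10. Dermal fibroblast markers were present at 91.9 CPM in trps1, from 5 of 6 genes with *pck1* at 0, and at 6.41 CPM in sox10, from 1 UMI with *pah*, *mamdc2b*, *pck1*, *hpdb* and *twist2* at 0, against 4507 CPM in the *pah* dermal fibroblast-like cells. Epithelial markers were at 823 CPM in trps1, from 7 of 10 genes, and at 160.1 CPM in sox10, from 1 of 10. In pre-osteoblast-like cells chaperone genes summed to 25993 CPM in trps1 and 10844 CPM in sox10, while depth ran the other way, with a median of 6684 UMIs in trps1 and 4311 UMIs in sox10. Epithelial markers there were at 533 CPM in trps1, from 5 of 10 genes, and at 35.6 CPM in sox10, from 2 of 10. Dermal fibroblast markers were at 128 CPM in trps1, from 5 of 6 genes, and at 26.7 CPM in sox10, from 1 of 6. In the same pre-osteoblast-like cells osteoblast markers summed to 73246 CPM in trps1 and 29791 CPM in sox10. Pre-osteoblast markers ran the other way, at 3262 CPM in trps1 and 5631 CPM in sox10. The pre-osteoblast-like cells of the libraries may thus not be in like states. The part of these in the difference was not tested, and the sort and the library cannot be told apart.

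Cells with few UMIs held relatively more AP-1 RNA. When the cells of each trps1 population were divided by their UMIs into 3 groups of nearly equal size, the AP-1 sum was higher in the group with the fewest UMIs than in the group with the most in 13 of 13 populations, by a median of 1.78-fold. The smallest ratio was 1.24, in the *ccl19a.1* cluster. The largest was 2.60, in the osteoblast-like cells, with 11085 CPM in the group with the fewest UMIs and 4268 CPM in the group with the most. *fosab* in those osteoblast-like cells was 2864 CPM and 895.6 CPM in the same order. The *pah* dermal fibroblast-like cells had 33819.6 CPM and 25546 CPM. The *pah* cells were above the osteoblast-like cells in each of the 3 groups. Divided by mitochondrial share instead, the group with the lowest share was above the group with the highest in 1 of 13 populations.

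**Figure D4:**
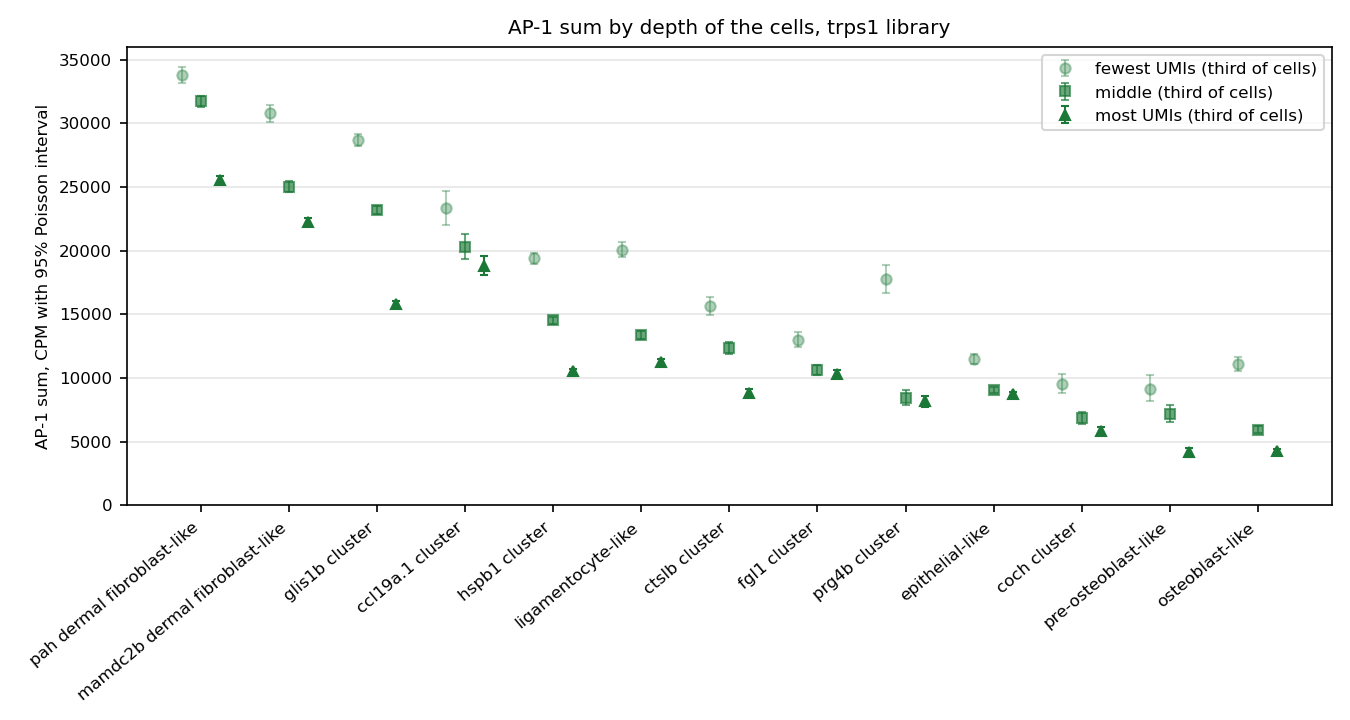
AP-1 sum (CPM, y axis from 0, with 95% Poisson intervals) in the 13 trps1 populations, each divided into 3 groups of cells by UMIs. In every population the group with the fewest UMIs (circles) lies above the group with the most (triangles), by 2.60-fold in the osteoblast-like cells and 1.24-fold in the *ccl19a.1* cluster.

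The other immediate early genes of a list chosen with earlier results known did not all follow AP-1. Of 48 listed genes 44 were among the features, and 43 had at least 10 UMIs in trps1. In the osteoblast-like cells 20 of 43 were at least 2-fold lower than in the other trps1 cells, with *egr1*, *socs3a*, *btg2* and *ier2a* among them, while 1, *nr4a3*, a nuclear receptor gene, was higher, where 7.8% of all genes and 37.9% of genes of at least 100 CPM were lower and 1.45% and 4.99% higher. The list had a median of -0.94 on the log2 scale there, and all genes tested had -0.18. Most of all genes tested have few UMIs, and the 10 CPM added shrinks their differences. In the *pah* cells 3 of 43 were higher (*nr4a1*, *btg2* and *sik1*) and 3 lower, where 1.23% of all genes and 6.62% of genes of at least 100 CPM were higher and 2.43% and 10.7% lower. In the *mamdc2b* cells 4 were higher (*egr1*, *socs3a*, *socs3b* and *cebpd*) and 3 lower, where 2.29% and 9.54% were higher and 2.17% and 10.4% lower. In the *prg4b* cluster, where *atf3* was high, 3 were higher (*dusp4*, *klf2b* and *klf6a*) and 6 lower, where 6.45% and 10.4% were higher and 4.83% and 21.4% lower. In these 3 populations the counts over all 43 genes were close to or under the shares among genes of at least 100 CPM. Some of the 43 lay under 100 CPM over all trps1 cells, such as *egr3* at 20.3 CPM and *dusp4* at 13.7 CPM. Every gene higher in the *pah* or *mamdc2b* cells was above 100 CPM, the lowest being *sik1* at 149 CPM. The sets are thus not of like abundance, so the shares cannot decide whether the counts stand out. In epithelial-like cells, low for *fosab* and *jun*, 7 were higher, with *egr2a*, *egr3* and *cebpb* among them, and 10 lower, where 4.97% of all genes and 10.1% of genes of at least 100 CPM were higher and 8.37% and 32.9% lower. The chaperone list did not follow the AP-1 order, with 45813 CPM in the *pah* cells, 53300 CPM in epithelial-like cells and 25039 CPM in osteoblast-like cells.

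Genes often described as AP-1 targets in mammals were counted in the same way. Of 25 listed genes 23 were among the features, and 21 had at least 10 UMIs in trps1. In the *pah* cells, highest in AP-1, 0 of 21 were at least 2-fold higher and 2 were lower, *mmp13b* and *cd44a*, where 1.23% of all genes and 6.62% of genes of at least 100 CPM were higher and 2.43% and 10.7% lower. In the osteoblast-like cells 0 were higher and 8 lower, with *vim* and *hmox1a* among them, where 7.8% of all genes and 37.9% of genes of at least 100 CPM were lower, which is near the share of the list. Part of this list lay under 100 CPM over all trps1 cells, so the sets are not of like abundance. In the pre-osteoblast-like cells, equally low in AP-1, 6 were higher, with the collagenase and gelatinase genes *mmp13b* and *mmp9* among them, and 9 lower, where 2.64% of all genes and 4.99% of genes of at least 100 CPM were higher and 8.38% and 32.9% lower. *mmp9* and *mmp13b* also served as markers that named the pre-osteoblast-like cells. The list summed to 7660.1 CPM in the *pah* cells, 8379 CPM in the ligamentocyte-like cells and 2724 CPM in the osteoblast-like cells.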

How the data were processed

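The authors aligned 10x Chromium 3′ reads with Cell Ranger 3.0.0 to GRCz11 and deposited raw UMI counts per called barcode. The strand setting of the counting is not given in the sources used here. In RefSeq's GRCz12tu annotation *fosab*, *fosl2* and *junbb* each overlap 1 other gene, so their counts are less certain. The 3′ UMI counts were not divided by gene length. Barcodes were filtered and clustered in Seurat 5.3.0 under R 4.3.3 with the study's settings (2000 variable features less the lists named in the report, 38 dimensions, resolution 0.9). Epithelial-like and endothelial-like cells were removed before the remaining cells were clustered again. Doublets were not called, and an alternative left out the 5% of barcodes with the most UMIs and clustered the rest again. Intervals are exact (Poisson, Clopper-Pearson, and conditional binomial for ratios), from scipy 1.17.1. A ratio is without and a 2-fold count with 10 CPM added. The members, lists and clusters' markers were chosen with earlier results of these data known. Genes were named by membership, by the 5 nearest patterns, and as examples from list counts. A gene of the AP-1 target list is in its counts, but its own values are not reported here. The fold counts and the clustering were tested on simulated data.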

Additional observations from a re-analysis of the deposited data

Results flagged for a closer look

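The barcodes outside the quality limits, which no comparison above uses, held more AP-1 RNA than the cells within them. The AP-1 sum was 24637 CPM in the 957 such barcodes of the trps1 library, against 15843 CPM in its passing cells. It was 20768.5 CPM in the 220 such barcodes of the sox10 library, against 5342 CPM in its passing cells. Most of these barcodes had under 500 genes, and those alone held 32686 CPM in trps1 and 26641 CPM in sox10. In the sox10 library *fosab* was at 7392 CPM in barcodes of under 500 genes, against 758.5 CPM in passing cells. Whether these barcodes are damaged cells, small cells or droplets with free RNA was not tested.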

How the results depend on the processing

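No paired analysis was possible because each sort gave 1 library. All values here are log2 differences unless named otherwise. The AP-1 sum against the other trps1 cells was recomputed for the *pah*, *mamdc2b*, ligamentocyte-like, *prg4b*, osteoblast-like and epithelial-like cells, and in these 6 none changed sign under the alternatives run. Settings that cluster again also change which cells are counted. With the AP-1 and stress genes kept, the cluster named dermal fibroblast-like held 279 cells, against 466 *pah* cells of both libraries. It had *fosab* itself among its leading genes, so its value is not a separate check. At resolution 0.5 a cluster of 1229 cells led by *glis1b* carried that name beside the *mamdc2b* cells. With at least 200 genes a cluster of 330 cells led by *pck1* carried it, and *pah* was not among its leading genes. An unnamed cluster of 493 cells then had *fosab* among its leading genes. At a mitochondrial limit of 10%, clusters of 487 and 114 cells carried the name. The *pah* value of 1.03 became 1.45 with the AP-1 and stress genes kept in the variable features, 0.73 at resolution 0.5, 1.06 at resolution 1.2, 0.973 at a mitochondrial limit of 10%, 1.30 with at least 200 genes, 0.982 without the 5% of barcodes with the most UMIs, 0.923 thinned and 0.893 as a mean over cells. The *mamdc2b* value of 0.732 became, in the same order without resolution 0.5, 0.647, 0.75, 0.652, 0.628, 0.575, 0.631 and 0.63, and was 0.674 with 20 dimensions. The *mamdc2b*-led cluster did not meet the naming rule for dermal fibroblasts with those genes kept (318 cells) or at 10% (312 cells). Nor did it with 200 genes (391 cells) or without the top 5% (362 cells). These values are thus of a cluster led by *mamdc2b*, not always of one named dermal fibroblast-like. The ligamentocyte-like value of -0.279 became -0.386 with those genes kept, -0.0202 at resolution 1.2, -0.365 with 20 dimensions, -0.355 at 10%, -0.334 with 200 genes and -0.364 without the top 5%. At resolution 1.2 the cluster of that name was led by *thbs4a* and held 79 cells, against 362, so the cells are not the same. Without the top 5%, the *prg4b* value was -0.775 (-0.68 in the report's setting), the osteoblast-like -1.16 (-1.55), the epithelial-like -0.892 (-0.866), and the trps1 over sox10 difference 2.01 in osteoblast-like (2.37) and 0.846 in pre-osteoblast-like cells (1.68). Thinned, osteoblast-like was -1.33 and epithelial-like -0.911, and as means over cells -1.26 and -0.923. Epithelial-like was -0.899 with 200 genes. The pre-osteoblast-like library difference was 1.34 with the genes kept, 1.08 at resolution 1.2 and 1.37 at 10%. In cells of 3000 to 8000 UMIs, chosen after seeing the data, the values were 0.665 for *mamdc2b*, -0.343 for ligamentocyte-like, -0.882 for *prg4b*, -1.26 for osteoblast-like and -0.838 for epithelial-like cells, and 1.80 and 2.46 for the library differences in osteoblast-like and pre-osteoblast-like cells. The share of trps1 cells with 5 or more members was 94.4%, and became 90.2% with 200 genes, 59.3% thinned, 74.6% with 2 UMIs required and 97.3% in that window.

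Of counts of members, the 3 higher in *pah* cells became 5 with the AP-1 and stress genes kept, where these genes also shaped the clusters. The 5 higher in trps1 pre-osteoblast-like cells became 3 without the top 5% and 8 in the window. *fosl1a* in the *prg4b* cluster, at 0.01, was -0.0246 with those genes kept, -0.0562 with 20 dimensions, -0.0325 without the top 5% and -0.0489 in the window, and *fosl2* in osteoblast-like cells, at -0.61, was 0.0395 thinned. The causes were not tested. The library comparison rests on 16 and 21 sox10 skeletal cells and on 1 library a sort, and the depth of single cells limits *fosl2*, *jund* and *fosaa*.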

Other observations

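Further bZIP genes were detected beside the 10 members. Of 35 listed, 32 were among the features. *jdp2b*, which encodes a Jun dimerization protein, was highest, among the 13 trps1 populations, in the same ones as the AP-1 sum. It stood at 1865 CPM in the *pah* and 1714 CPM in the *mamdc2b* dermal fibroblast-like cells. In both it was the single gene of 26 at least 2-fold higher than in other trps1 cells. The shares there were 1.23% and 2.29% of all genes and 6.62% and 9.54% of genes of at least 100 CPM. *jdp2b* had 339 CPM in osteoblast-like cells and 207 CPM in epithelial-like cells. Between the libraries, *jdp2b* in osteoblast-like cells was at 339 CPM in trps1 and 38.4 CPM in sox10. *maff*, a small Maf gene, was highest among the 13 trps1 populations in the *ctslb* cluster at 726 CPM, under the 841 CPM (652 to 1068) of the sox10 glia-like cells, and lowest in epithelial-like cells at 131 CPM. In the *prg4b* cluster 6 of 26 were higher (*fosl1b*, *mafk*, *atf5a*, *atf5b*, *atf7a* and *nfe2l1b*) and 2 lower, where 6.45% of all genes and 10.4% of genes of at least 100 CPM were higher and 4.83% and 21.4% lower. All 6 lay under 100 CPM over all trps1 cells, with *atf5b* highest at 94.1 CPM, so the share of 10.4% is for more abundant genes. *mafk* had 12 UMIs in that cluster. *fosl1b*, the duplicate of *fosl1a*, had 27 UMIs in all of trps1, 7 of them in that cluster, which came to 21.4 CPM (8.61 to 44.1).

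Genes for the kinases and factors that act on AP-1 genes were low and even. The 19 of them in the features summed to 218 CPM in trps1 and 245 CPM in sox10. In the *pah*, *mamdc2b*, ligamentocyte-like and *prg4b* cells 0 of 19 were at least 2-fold different from the other trps1 cells, and in osteoblast-like cells 1, *srfa*, was lower. These counts are from 1 library without a test, and such low genes can seldom reach 2-fold with 10 CPM added.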
